A study of Mus musculus with 6 samples.

Results

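The complement components and receptors described here are C1qa, C1qb, C1qc, C3, C4b, Cfp, Cfb, C3ar1 and C5ar1. These 9 genes were chosen by name as the main complement genes that macrophages make, and all 9 were found by their symbols among the 13008 genes of the expression table. RNA-seq was performed on F4/80+/Ly6CLow macrophages (MPs) that were sorted by FACS from mouse hindlimb muscles on day 5 after injury with cardiotoxin, a snake venom toxin that kills muscle fibers and is followed by regeneration. The study compared 3 Control and 3 Cripto KO samples to ask what the loss of Cripto, a GPI-linked co-receptor of TGFβ family ligands, changes in the MPs that accumulate during repair. All mice were C57BL/6J, 3 months old and labelled male. The Cripto KO mice were Tg:LysMCre::Cripto-/-, in which Cre made under the lysozyme M promoter deletes Cripto in cells of the myeloid lineage, granulocytes as well as MPs. By the study's account the deletion was incomplete in MPs, less so in GFP-positive ones, so the Cripto KO samples can hold cells that kept the gene. The labels give the Control mice as wild type. By contrast, the study describes the sequenced cells of both groups as sorted for GFP as well. In its account the Control and Cripto KO mice both carry the Cre and the R26mTmG reporter. Both groups had received cardiotoxin. Tdgf1, which codes for Cripto, is among the genes not analysed here, and the genotype labels therefore went without that check.

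Complement is a cascade of proteins that tags microbes, dying cells and debris for removal. In the classical pathway C1q, a bouquet of chains encoded by C1qa, C1qb and C1qc, binds its target and leads to the cleavage of C4 and then of C3, whereas the alternative pathway amplifies C3 cleavage through factor B (Cfb), stabilised by properdin (Cfp). The small fragments C3a and C5a act on the receptors encoded by C3ar1 and C5ar1. Most complement of the plasma comes from the liver, but tissue MPs make their own C1q and properdin, and in injured muscle MPs clear the debris of dying fibers.

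The values are reads per 1000000 of a normalized library size, as the authors deposited them. The Control samples held 12688968 to 14141773 reads and the Cripto KO samples 14633880 to 15659847, so depth did not overlap between the groups. The part of depth in the group differences was not tested. A count of 3 reads, taken as the floor of detection, corresponded to a value of 0.222 to 0.286. The sorted cells carried macrophage markers, with Csf1r, the receptor of the growth factor M-CSF, averaging 1720 ± 84.0 in Control and 1676 ± 98.1 in Cripto KO (SD, n = 3 each). The summed level of 9 macrophage markers was 9169 to 9269 in Control and 8544 to 9631 in Cripto KO samples. The 8 endothelial markers summed to 46.5 to 57.4 and 50.0 to 55.8. The 6 markers of Ly6C-high monocytes summed to 85.4 to 112 and 94.1 to 107. The neutrophil genes S100a9, Retnlg, Ngp and Camp and the B cell gene Cd79a were at the floor in every sample. Other genes of those lists were detected in every sample: Csf3r, a cytokine receptor of neutrophils, averaged 99.6 in Control and 94.4 in Cripto KO, Mmp8 averaged 8.56 and 9.17, and the B cell receptor gene Cd79b ranged from 5.92 to 10.9 over the 6 samples. The 9 neutrophil markers summed to 107 to 115 and 101 to 111. Control replicate 1 stood apart with a value of 171 for Xist, the RNA of the inactive X chromosome of females (0.114 to 0.885 in the other 5 samples), which goes against its label as male. Lyz2, the gene of lysozyme M whose promoter drives the Cre, was at 11066 in Control replicate 2. Control replicates 1 and 3, at 25.2 and 21.4, were at the level of the Cripto KO samples (21.2 to 28.3). The Control samples were thus not alike at that locus, and which of them carried the Cre was not tested. The identity of the Control libraries is in doubt. Results were also computed without each sample in turn, but not without several at once.

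None of the 9 complement genes passed the test between Control and Cripto KO MPs (adjusted p under 0.05, limma over all genes), where 0.131% of all genes did. One gene, Cfb, had an unadjusted p under 0.05, against 8.59% of all genes. No member had groups that did not overlap, against 14.5% of all genes. The median log2(Control/Cripto KO) of the members was 0.01, equal to the median of 0.01 over all genes, with 5 members above 0 and 4 below. The edgeR quasi-likelihood test and DESeq2 on the recovered reads also called 0 of the 9, with 1 unadjusted p under 0.05 each. For 8 of the 9 genes the 95% interval of the difference lay within 0.5 of 0 on the log2 scale, which bounds how far the groups can differ without showing that they are alike. These are bulk samples, so fewer cells that express a gene and less RNA per cell cannot be told apart.

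**Figure D1:**
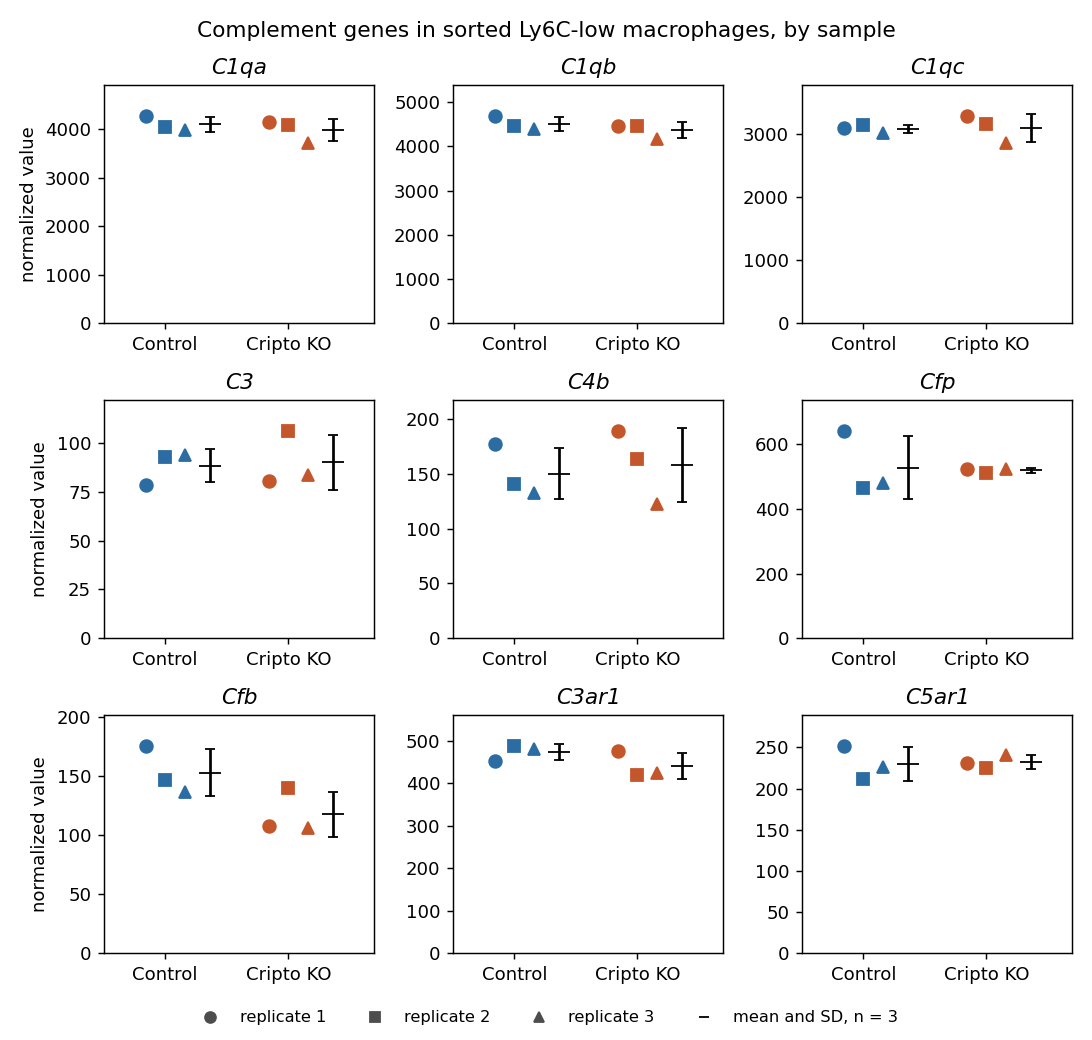
Normalized value (reads per 1000000, linear axes from 0) of the 9 complement genes in each Control and Cripto KO sample, with the mean and SD of 3 samples beside the points. The points of the groups overlap for each gene, and Cfb has the largest ratio of means, with 153 in Control and 118 in Cripto KO MPs.

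The chains of C1q, the recognition molecule of the classical pathway, were the most abundant members. The genes lie next to each other on the minus strand of chromosome 4 (GRCm38, GENCODE), with C1qb (ENSMUSG00000036905) at chr4:136880129-136886187, C1qc (ENSMUSG00000036896) at chr4:136889804-136893065 and C1qa (ENSMUSG00000036887) at chr4:136895917-136898803. The whole stretch spans 18.7 kb and holds no other annotated gene. The sequences upstream of C1qb and C1qc are shown because the genes of the chains are neighbours, taken from RefSeq promoters (GRCm38.p6) on the minus strand and without bases that GENCODE places in an exon. The C1qb sequence is chr4:136886201-136886450 and the C1qc sequence chr4:136893066-136893164, each printed 5′ to 3′. Capitals mark the letters GAGGAA or, on the other strand, TTCCTC, the core recognised by PU.1, an ETS factor of the myeloid lineage.
C1qb: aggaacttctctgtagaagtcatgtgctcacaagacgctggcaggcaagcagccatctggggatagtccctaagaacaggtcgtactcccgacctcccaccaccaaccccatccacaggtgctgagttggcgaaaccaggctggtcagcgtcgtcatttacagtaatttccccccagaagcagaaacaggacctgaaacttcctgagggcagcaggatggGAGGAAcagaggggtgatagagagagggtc
C1qc: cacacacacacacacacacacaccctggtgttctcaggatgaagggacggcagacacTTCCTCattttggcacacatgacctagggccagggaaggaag
Each window holds 1 match. Of all 32851 promoters, 23.3% hold GAGGAA on either strand in the 250 bases before the start and 9.91% in the 99 bases farthest from it, the length of the C1qc window, so the match is a description of the letters and not of a bound site. No match was found in the windows of C3ar1 (246 bases), C5ar1 (48 bases), C3 (250 bases) and Cfp (250 bases), which are of unequal length.

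In the order of replicates 1, 2 and 3, kept throughout, C1qa was 4269, 4041 and 3979 in the Control replicates and 4140, 4085 and 3718 in the Cripto KO replicates. The groups overlapped, with the highest value in Control replicate 1 and the lowest in Cripto KO replicate 3. Control averaged 4096 ± 153 and Cripto KO 3981 ± 229 (SD, n = 3 each), for a log2(Control/Cripto KO) of 0.04 (95% interval -0.17 to 0.25, adjusted p = 0.928, limma). C1qb was 4688, 4453 and 4391 in the Control replicates and 4473, 4469 and 4157 in the Cripto KO replicates, and the same samples were at the ends of its order. Its log2 fold change was 0.05 (95% interval -0.16 to 0.25, adjusted p = 0.916, limma). C1qc was 3092, 3131 and 3007 in the Control replicates and 3278, 3152 and 2847 in the Cripto KO replicates. For C1qc the 3 Control values lay inside the range of the Cripto KO values, and the log2 fold change was -0.01 (95% interval -0.21 to 0.20, adjusted p = 0.991, limma). On the linear scale the interval for C1qa reached from 0.892-fold to 1.19-fold, so a difference beyond these bounds lies outside the 95% interval.

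The C1q chains were measured with the least spread of the members. Each had between 36846 and 70436 reads in a sample. The within-group SD of C1qb was 0.055 on the log2 scale, and 91.7% of genes with a mean value of at least 10 had a larger one (83.2% for C1qa and 78.8% for C1qc). Counting error alone would give a coefficient of variation of 0.431% at the lowest C1qb count, whereas the samples varied by 3.47% in Control and 4.15% in Cripto KO, so counting was a small part of the spread. Together the chains took 1.16%, 1.12% and 1.10% of all reads in Control and 1.20%, 1.13% and 1.06% in Cripto KO replicates 1, 2 and 3, and the 9 members took 1.21% to 1.36%.

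Levels of different genes were compared as reads per kb of exon and 1000000 reads, the level per length. C1qb stood at 3993 ± 128 in Control and 3957 ± 173 in Cripto KO (SD, n = 3 each), and C1qa at 3793 ± 132 and 3775 ± 229. These levels ranked 7 and 8 among 12989 genes with an annotated length. The ranges of C1qb and C1qa over the 6 samples overlapped, but C1qb was above C1qa in each of the 6 samples, with a C1qa/C1qb ratio between 0.936 and 0.968. C1qc was lower, at 1534 ± 29.1 and 1580 ± 123, and ranked 32. That gap depends on the gene model, because GENCODE gives C1qc 2 transcripts with 1931 bases of exon in all, of which the longest transcript holds 1203. With the longest transcript as the length, C1qc stood at 2463 ± 46.7 in Control and 2535 ± 198 in Cripto KO, and the C1qa/C1qc ratio fell from between 2.35 and 2.56 to between 1.46 and 1.60. The order C1qb, C1qa, C1qc was the same under both lengths in all 6 samples.

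**Figure D2:**
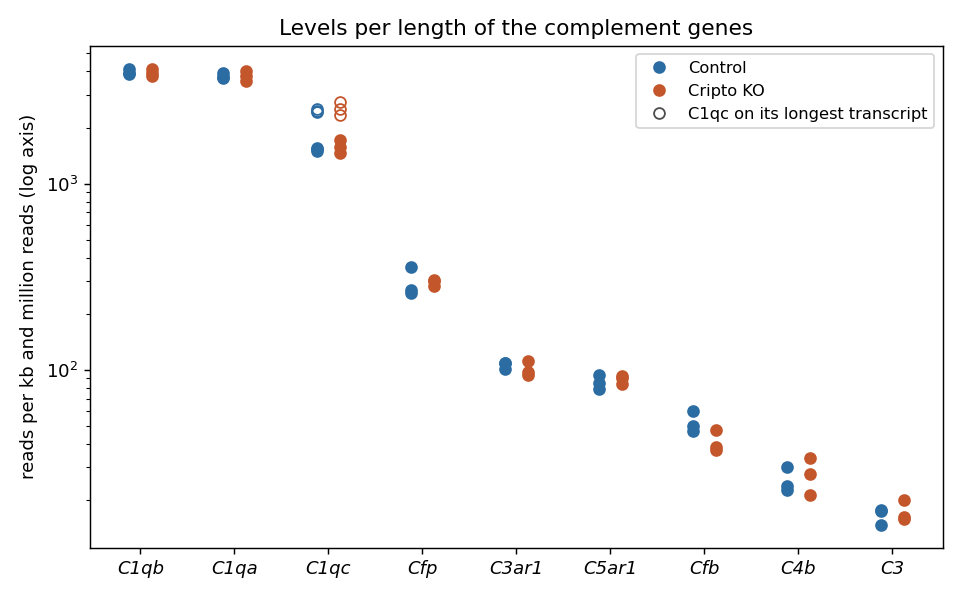
Level of each complement gene in reads per kb of exon and 1000000 reads (log axis), 1 point per sample, Control in blue and Cripto KO in orange, with open circles for C1qc on its longest transcript. C1qb and C1qa lie highest, on average 3975 and 3784, and C3 lowest, on average 16.9; neighbours overlap for C1qb with C1qa and for C3ar1 with C5ar1.

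C4b and C3 encode the proteins that are cleaved after C1q binds and that coat the target. C4b (ENSMUSG00000073418), at chr17:34728380-34743882, was 177, 141 and 133 in the Control replicates and 189, 164 and 122 in the Cripto KO replicates. The samples of the groups were interleaved, with Cripto KO replicate 1 highest and Cripto KO replicate 3 lowest. Control averaged 150 ± 23.5 and Cripto KO 158 ± 33.8 (SD, n = 3 each), for a log2(Control/Cripto KO) of -0.06 (95% interval -0.42 to 0.30, adjusted p = 0.935, limma). C4b was the most variable member, with a within-group SD of 0.274 on the log2 scale, and only 5.28% of genes with a mean value of at least 10 had a larger one. Its lowest count was 1629 reads, for which counting error gives 2.48%, against a spread of 15.6% in Control and 21.3% in Cripto KO. The summed level of 8 muscle fiber markers, among them Acta1 and Myh4, was also highest in replicate 1 of each group, at 76.3, 36.3 and 33.7 in the Control replicates and 50.6, 17.9 and 13.2 in the Cripto KO replicates. Whether muscle fiber RNA has a part in the spread of C4b was not tested. C4b shares 48.3% of its 31-base words with its paralogue C4a, so reads could be split between them, although C4a was assigned 4 to 11 reads per sample.

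C3 (ENSMUSG00000024164), at chr17:57203970-57228136, encodes the protein on which the complement pathways converge. It was 78.6, 92.8 and 93.8 in the Control replicates and 80.5, 106 and 83.7 in the Cripto KO replicates. The lowest value was in Control replicate 1 and the highest in Cripto KO replicate 2, so the groups overlapped over most of their range. The mean was 88.4 ± 8.52 (SD, n = 3) against 90.2 ± 14.1 (SD, n = 3), with a log2 fold change of -0.02 (95% interval -0.28 to 0.24, adjusted p = 0.973, limma). Per length C3 was the lowest member, at 16.6 ± 1.63 in Control and 17.2 ± 2.28 in Cripto KO, below C4b at 25.4 ± 3.90 and 27.4 ± 6.07, and the ranges of the pair did not overlap. C3 and C4b are also made by fibroblasts. The 12 fibroblast markers summed to 520 to 555 in Control and 627 to 663 in Cripto KO samples. All 12 had a log2 fold change below 0. Of the 12, 5 had an unadjusted limma p under 0.05, against 8.59% of all genes, and 0 were called. Col1a1, which encodes a collagen chain, averaged 195 ± 5.64 in Control and 231 ± 11.1 in Cripto KO (SD, n = 3 each) (adjusted p = 0.392, limma). What part of the C3 and C4b reads came from such cells was not tested.

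Factor B and properdin act in the alternative pathway. Cfb (ENSMUSG00000090231), at chr17:34856374-34862518, encodes the protease precursor that pairs with C3b to form the convertase. Its values were 176, 147 and 137 in the Control replicates and 108, 140 and 106 in the Cripto KO replicates. The Control samples held the highest values, except that Cripto KO replicate 2 lay above Control replicate 3. Control averaged 153 ± 20.1 and Cripto KO 118 ± 18.9 (SD, n = 3 each), for a log2(Control/Cripto KO) of 0.38 (standard error 0.12, 95% interval 0.10 to 0.66), or 1.30-fold. The unadjusted limma p was 0.0136, and over all 13008 genes the adjusted p was 0.494. Over the alternatives the adjusted p lay between 0.253, with DESeq2, and 0.881, with Control above Cripto KO in each. The unadjusted p did not stay under 0.05 without Cripto KO replicate 3, and the log2 fold change lay between 0.28 and 0.51 when each sample was left out in turn. Cfb shares 75.5% of its 31-base words with Gm20547, a gene that overlaps it on the same strand and was not analysed here, so the reads assigned to Cfb are uncertain. The fibroblast sums given above were higher in Cripto KO, the other way from Cfb. The muscle fiber sums of the groups overlapped. Of those 8 markers, 5 were higher in Control at an unadjusted limma p under 0.05, against 598 of all 13008 genes, and 0 were called. The part of either cell type in the Cfb values was not tested.

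**Figure D3:**
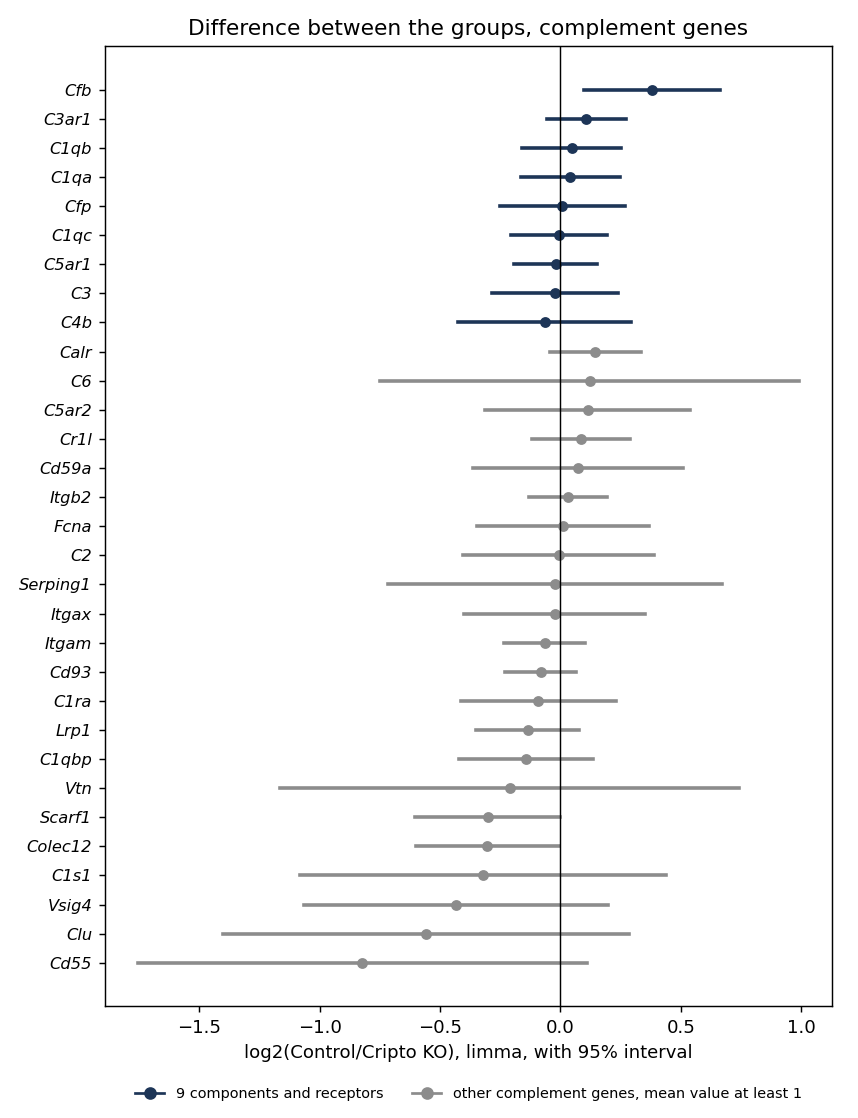
Log2(Control/Cripto KO) with its 95% interval from limma for the 9 complement components and receptors (dark) and for 22 of the 23 other complement genes with a mean value of at least 1 (grey), 1 being left out as not reported here. Positive values mean higher in Control; Cfb is the only dark interval that leaves out 0, and 0 of the genes shown passed the adjusted threshold.

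Cfp (ENSMUSG00000001128), at chrX:20925454-20931555, encodes properdin, which stabilises the alternative convertase and is made by myeloid cells. It was 641, 463 and 481 in the Control replicates and 525, 511 and 523 in the Cripto KO replicates. The Cripto KO samples lay close together, and the Control values fell on both sides of them because Control replicate 1 was far above the other samples. Control averaged 528 ± 98.1 and Cripto KO 520 ± 7.68 (SD, n = 3 each), for a log2(Control/Cripto KO) of 0.01 (95% interval -0.25 to 0.27, adjusted p = 0.988, limma). Without Control replicate 1, the sample with the high Xist value, the log2 fold change was -0.14 (adjusted p = 0.484, limma), so the near-zero difference rests on that sample. The part of that sample's other differences in its Cfp value was not tested. Per length Cfp came after the C1q chains, at 293 ± 53.7 in Control and 295 ± 11.0 in Cripto KO, and its range lay below that of C1qc and above that of C3ar1.

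C3ar1 and C5ar1 encode the G protein-coupled receptors for C3a and C5a, through which complement activation reaches the MP itself. C3ar1 (ENSMUSG00000040552), at chr6:122847138-122856161, was 452, 487 and 481 in the Control replicates and 475, 420 and 425 in the Cripto KO replicates. The 2 lowest values were in Cripto KO samples and the 2 highest in Control samples, but Cripto KO replicate 1 lay above Control replicate 1. Control averaged 473 ± 18.9 and Cripto KO 440 ± 30.8 (SD, n = 3 each), for a log2(Control/Cripto KO) of 0.11 (95% interval -0.06 to 0.27, adjusted p = 0.722, limma). C5ar1 (ENSMUSG00000049130), at chr7:16246743-16259540, was 252, 211 and 226 in the Control replicates and 231, 225 and 241 in the Cripto KO replicates. The Cripto KO values lay inside the range of the Control values, and the log2 fold change was -0.02 (95% interval -0.19 to 0.15, adjusted p = 0.964, limma). Per length C3ar1 stood at 106 ± 4.46 in Control and 101 ± 9.05 in Cripto KO, and C5ar1 at 86.1 ± 7.48 and 89.2 ± 4.51. Their ranges overlapped, with C3ar1 above C5ar1 in each of the 6 samples. Both receptors were above Cfb, which stood at 52.2 ± 6.70 and 41.0 ± 5.66, and Cfb was above C4b and C3 in range.

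The members did not move as a block from sample to sample. Over the 6 samples the log2 values of C1qa and C1qb had a Pearson r of 0.98, and the SD of their log2 ratio was 0.016 against 0.067 and 0.056 for the single genes. C1qc followed less closely, with an r of 0.80 with C1qa and 0.68 with C1qb. C4b had an r of 0.86 with C1qa and 0.85 with C1qc, and shared the low value in Cripto KO replicate 3. Cfp and C5ar1 had an r of 0.90, and both were highest in Control replicate 1. C3 ran against C5ar1, with an r of -0.66. These correlations describe only 6 points that share library, depth and scaling. Among 7729 genes with a mean value of at least 10, C1qa was number 4 in likeness to C1qb, and C1qc was number 143 in likeness to C1qa. Other genes thus followed a C1q chain more closely than another chain did. The genes most like the mean profile of the C1q chains were Skap2 (r = 0.98), Glrx (0.975) and Ndrg3 (0.97), and 28 of 7727 genes had an r above 0.9.

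**Figure D4:**
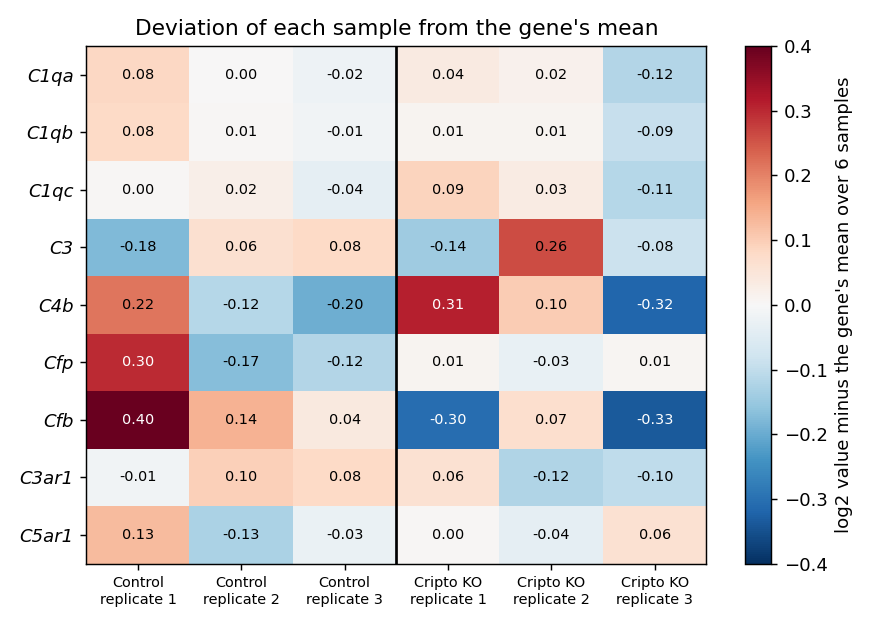
Log2 value of each complement gene in each sample minus that gene's mean over the 6 samples (colour and printed number). Cripto KO replicate 3 is lowest for C1qa, C1qb, C1qc and C4b, and the largest deviation is that of Cfb in Control replicate 1, 0.40.

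The other genes of the pathway were read from the same fit. Of 49 listed, 26 had values and 23 were not analysed here. None of the 26 was called, against 0.131% of all genes. An unadjusted limma p under 0.05 was found for 3 (Colec12, Cfd and Scarf1), against 8.59% of all genes. Groups did not overlap for 4 (Colec12, Cfd, C7 and Cd55), against 14.5% of all genes. Of these 4, Cfd and C7 were at the floor in every sample. Cd55, named after its values were seen, was at 0.775 in Control and 1.43 in Cripto KO MPs. The edgeR test and DESeq2 called 0 of the 26 as well, with 4 and 1 at an unadjusted p under 0.05. The median log2 fold change of the 26 was -0.07, with 9 above 0 (C7 among them) and 17 below, beside 0.01 over all genes. Of the 26, 23 had a mean value of at least 1.

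Among recognition molecules and proteases of the classical and lectin pathways, 6 of 14 genes had values and 0 were called. Fcna, a ficolin that recognises acetylated sugars, had the highest value, 80.0 ± 5.47 in Control and 81.0 ± 21.9 in Cripto KO (SD, n = 3 each; adjusted p = 0.988, limma), with Cripto KO replicate 1 at 106 above all other samples. Colec12, a scavenger collectin, was 10.3, 12.5 and 12.8 in the Control replicates and 16.1, 13.7 and 14.0 in the Cripto KO replicates. All of its Cripto KO values were above the Control values, and the log2 difference was -0.30 (adjusted p = 0.565, limma). The proteases that carry the signal from C1q onward were at low values, with C1ra at 10.4 to 14.3 and C2 at 5.07 to 6.90 over the 6 samples. C1ra and C2 were named for their roles after their values were seen. Of the alternative and terminal components, 3 of 8 had values. Cfd, which encodes factor D, the protease that cleaves factor B, had 1, 3 and 2 reads in Control and 0 in each Cripto KO sample (adjusted p = 0.559, limma), so both groups were at or under the floor and no fold is given. C6 had mean values of 1.51 in Control and 1.41 in Cripto KO, and C7 had 0 reads in all 6 samples.

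Of 16 regulators, 8 had values, 0 were called and 0 had an unadjusted p under 0.05. Cr1l, which encodes the rodent membrane regulator Crry, averaged 66.8 ± 5.87 in Control and 62.9 ± 4.87 in Cripto KO (SD, n = 3 each; log2 difference 0.09, adjusted p = 0.823, limma). Its groups overlapped. Of 11 receptors, 9 had values and 0 were called. Calr, the gene of calreticulin, which binds C1q on dying cells, was 1106 ± 99.9 in Control and 998 ± 36.1 in Cripto KO MPs (adjusted p = 0.690, limma). Lrp1, which encodes the endocytic receptor that acts with calreticulin, was 777 ± 79.3 and 853 ± 69.5 (adjusted p = 0.727, limma). Scarf1, a scavenger receptor that can bind C1q, was 27.4, 21.8 and 19.5 in the Control replicates and 30.0, 25.6 and 28.6 in the Cripto KO replicates. Its groups overlapped through Control replicate 1, and the log2 fold change was -0.30 (adjusted p = 0.572, limma). Itgam and Itgb2, which encode the chains of complement receptor 3 and were named for that role after their values were seen, had log2 fold changes of -0.07 and 0.03.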

How the data were processed

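RNA-seq of sorted MPs from 3 Control and 3 Cripto KO samples was analyzed. The authors trimmed the reads with cutadapt 1.7.1, quantified them on GRCm38 with RSEM 1.2.20 and normalized them with limma. The deposited signal per gene and sample equals reads plus 0.5, scaled to 1000000 reads of a normalized library. Dividing by each sample's smallest value gave whole reads for 100.0% of 78048 values, within 0.01 read. The library kit does not mark strand, and no gene annotated on the opposite strand overlaps a member.

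Log2 values, without a pseudocount since none was 0, were compared with limma 3.58.1 (R 4.3.3; lmFit, then eBayes with its trend option, two-sided) and Benjamini-Hochberg adjustment over all 13008 genes. The methods of the study name limma. The alternatives were edgeR 4.0.16, DESeq2 1.42.0, added pseudocounts (0.5 and 1), a filter that kept mean values of at least 1, quantile normalization, the replicate number as a block and fits that each dropped 1 sample. The study calls the samples biological replicates, but the labels do not tie them to single animals. The fit was tested on simulated data. Lengths and coordinates are from GENCODE mouse release 21, with lengths for 12989 genes. The members and gene lists were chosen with earlier results of these data known. The text names all members and, of the other complement genes, those with an unadjusted p under 0.05 and the 2 highest of each list, except that some items are not reported here. Of each marker list it names among the 2 highest genes and those at the floor, and it names the 3 genes most like the C1q profile. Limits from counts cover counting error only. Python 3.11.15 was used for tables and plots.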

Additional observations from a re-analysis of the deposited data

How the results depend on the processing

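The count of called complement genes was 0 of 9 members and 0 of 26 others under every alternative run. The number of called genes among all tested, 17 with limma, was 6 after quantile normalization, 74 with DESeq2, 2 with the replicate block and 5 to 31 when 1 sample was left out (5 without Cripto KO replicate 2, 31 without Control replicate 1, 7 without Control replicate 3, 10 without Cripto KO replicate 1 and 7 without Cripto KO replicate 3). Same-numbered samples deviated with correlations of -0.21, -0.01 and -2.46e-05 over 11960 genes, and different-numbered ones with -0.15 to 0.14. The correlations thus showed no pairing by number, but with 3 samples per group they cannot exclude it. The block left 0 of 9 members called.

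Some differences near 0 changed sign with the processing. When all 6 samples were kept, Cfp was the only member to do so, at -0.066 after quantile normalization. Of the other complement genes, Fcna was -0.030 after quantile normalization, -0.031 with edgeR and -0.029 with DESeq2. Over the fits that left out 1 sample, the log2 fold change lay between -0.0063 and 0.071 for C1qa, -0.063 and 0.038 for C1qc, -0.10 and 0.10 for C3, -0.24 and 0.075 for C4b, -0.14 and 0.10 for Cfp, -0.086 and 0.039 for C5ar1, -0.10 and 0.22 for Fcna and -0.059 and 0.43 for C6. C1qb, Cfb and C3ar1 kept their direction under every alternative run. Per length, C1qc averaged 1557 reads per kb and 1000000 reads on the exon union and 2499 on the longest transcript, since the latter is shorter. Cfd has no value under the filter on a mean of at least 1. The cause of the other shifts was not tested. Depth limits most the genes at the floor of 3 reads, such as Cfd and C7. It also limits genes with few reads above it. Counting error at the lowest count was 37.8% for Cd55 (7 to 30 reads) and 28.9% for C6 (12 to 32 reads).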
